A study of Mus musculus with 30 samples.

Results

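Whether the lung's answer to a combined insult is the sum of its answers to each insult was examined in adult C57BL/6 mice of 16 weeks. The question was put as an interaction: the ventilation effect after inhaled LPS (LPS+MV minus LPS) minus the ventilation effect without it (MV minus control), each a difference of mean log2 intensity. The arrays were chosen by the age in their titles, which gave 16 of the 30 arrays of the series, 4 in each of 4 treatment groups. The other 14 arrays, from juvenile mice of 21 days, served to share the estimate of spread and to ask whether an interaction differed with age. Each array held total RNA of the whole lung of 1 animal, so the spread between arrays of a group is a spread between animals.

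Control mice were untreated and breathed spontaneously, and no study period is stated for them. LPS mice sat for 30 min in a closed chamber into which lipopolysaccharide of E. coli 0111:B4 was nebulised (a volume of 20 mL at 0.1 mg/mL), and then breathed on their own for 2 h. MV mice were ventilated for 2 h at a tidal volume of 15 mL/kg, 80 breaths/min, 30% oxygen and a positive end-expiratory pressure of 2 cm H2O. LPS+MV mice received the aerosol and were ventilated in the same way directly afterwards.

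Lipopolysaccharide, the outer membrane component of Gram-negative bacteria, is sensed by TLR4 with its helpers CD14 and MD-2, and drives NF-kB, cytokine and acute phase genes in epithelium, endothelium and macrophages. Ventilation with a large tidal volume stretches the alveolar wall and is known to raise inflammatory and mechanosensitive transcripts in rodent lung. A log2 interaction of 0 means that the fold changes of the single treatments multiply. A negative interaction means that the combination lies below that product, and a positive one that it lies above it.

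The labelled tissue was checked by its markers. Sftpc, the surfactant protein of alveolar type 2 cells, ran from 18194 to 21914 intensity units, and Scgb1a1, of airway club cells, from 18863 to 23537. A sex-linked pattern followed ventilation. Xist, transcribed from the inactive X chromosome of females, was above 100 on all 4 MV arrays and 3 of 4 LPS+MV arrays, and on 0 of 4 in both other groups. The Y-linked Eif2s3y showed the reverse, with 194 in LPS+MV replicate 4, where Xist was 18.2. The labels give no sex. An interaction of LPS with ventilation and one of LPS with this pattern cannot be told apart, save through that 1 array. With a term for the pattern in the model, 564 genes were called higher and 165 lower. That term is a shift common to all groups, so it cannot separate these interactions.

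Of 13089 genes tested, 865 (6.61%) passed for the interaction at an adjusted p of at most 0.05. It was positive for 662 genes (5.06%) and negative for 203 (1.55%), and 116 of the 865 departed from the product at least 2-fold (73 higher, 43 lower). The median interaction over all genes was 0.09, with a median SE of 0.17. After quantile normalization the median moved by 0.106 to -0.01, and the split became 372 higher and 439 lower. Under both scalings 366 genes were called higher and 191 lower, which is 64.4% of the 865. Single arrays also moved the counts: without control replicate 2 there were 340 higher and 96 lower, without MV replicate 3 there were 297 and 141, and without LPS replicate 2 there were 387 and 115. Without LPS replicate 3 there were 381 and 116, without LPS+MV replicate 2 there were 403 and 108, and without LPS+MV replicate 4 there were 381 and 112.

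The arms from which the interaction is built differed in size. Ventilation without LPS changed 4114 genes (31.4% of those tested; 949 higher, 7.25%, and 3165 lower, 24.2%), and ventilation after LPS changed 899 (6.87%; 465 higher, 3.55%, and 434 lower, 3.32%). Both arms set arrays with high Xist against arrays with low Xist, apart from LPS+MV replicate 4, and with a term for that pattern they held 1674 and 226 genes. LPS alone changed 4662 genes (35.6%; 12.9% higher and 22.7% lower), and LPS with ventilation, against ventilation, 2291 (17.5%; 12.1% higher and 5.37% lower). Each interaction is computed from both arms, so sorting the called genes by their arms describes the shape of the interaction and does not test it. By that sorting, 690 of the 865 genes had a ventilation effect called without LPS only (550 with a positive and 140 with a negative interaction, but 291 and 310 after quantile normalization), and 92 had one called after LPS only (62 and 30). A further 14 had both arms called in the same direction, 12 in opposite directions and 57 in neither. On the scale of intensity, 200 of the 203 genes called lower had a negative departure from the sum and 662 of the 662 called higher a positive one. In 610 of the 662, the means of MV and of LPS both lay below control. A positive log2 interaction then all but fixes a positive departure from the sum, so the count of 662 is no separate result. In 186 of the 203, the mean of LPS+MV lay at or below that of the higher single treatment. Both single treatments were called lower than control in 469 of the 662 genes, and in 1685 of all genes. Both were called higher in 124 of the 203, and in 439 of all genes. Controls were untreated, with no stated study period. Anything that sets control apart from all treated groups alike enters this contrast, and cannot be told apart from an interaction of LPS with ventilation.

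**Figure D1:**
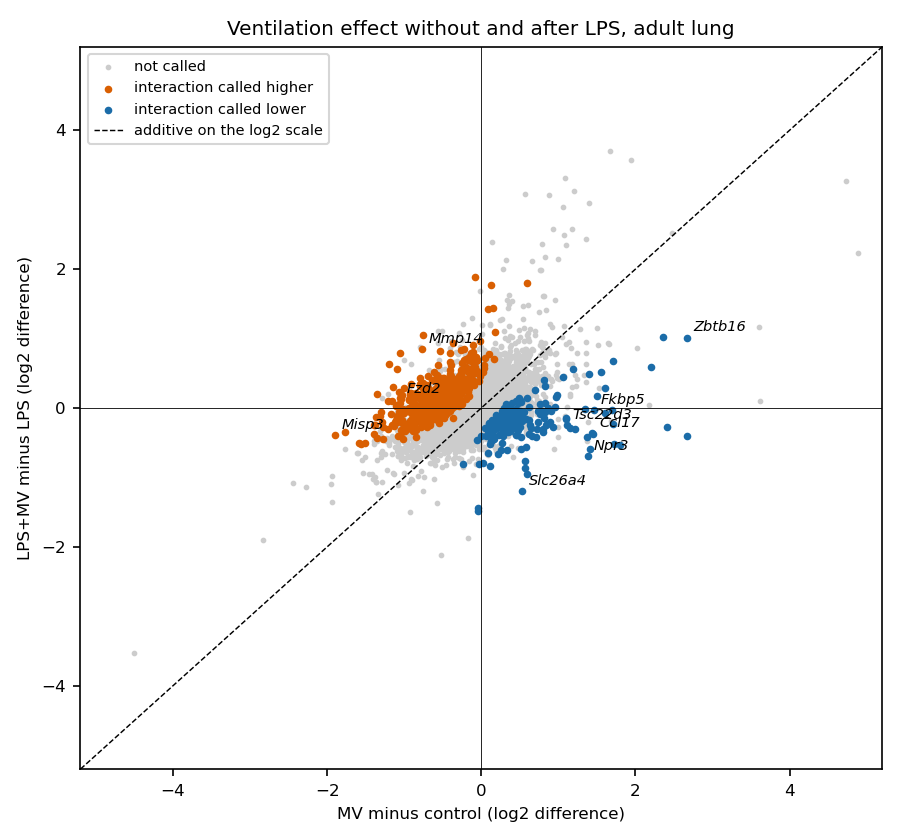
Each point is 1 of the 13089 genes tested. The horizontal axis is the log2 difference of MV from control and the vertical axis that of LPS+MV from LPS, in adult lung; the dashed line marks equal differences, an interaction of 0. Orange points (662) lie above the line and blue points (203) below it; 690 of these 865 genes had a ventilation effect called on the horizontal axis only.

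The glucocorticoid-responsive genes formed the list with the most negative median. The list collects genes that can be induced through the glucocorticoid receptor. This ligand-activated transcription factor responds to stress hormones and steroid drugs and restrains inflammation. Its activity was not tested here, and the list was chosen with earlier results of these data known. All 24 listed genes were measured. None passed higher and 10 passed lower, where 1.55% of all genes did, with a list median of -0.89 beside 0.09 for all genes. Ventilation without LPS raised 16 of the 24 (list median 1.03), LPS alone raised 17 (median 1.13), and ventilation after LPS raised 1 and lowered 1 (median -0.03). Over all genes, ventilation without LPS raised 7.25% and LPS alone 12.9%. Ventilation after LPS raised 3.55% of all genes and lowered 3.32%. The 10 genes were Mt2, Zbtb16, Fkbp5, Angptl4, Tsc22d3, Errfi1, Rgcc, Lcn2, Klf9 and Tat. There were 11 after quantile normalization and 9 with the Xist term, but 5 without control replicate 2 and 5 without both LPS+MV replicates 2 and 3.

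Fkbp5 encodes a co-chaperone that dampens the glucocorticoid receptor. Its intensities were 86.0, 62.8, 97.9 and 150.3 in control, 235, 345, 174 and 325 in MV, 377, 375, 409 and 348 in LPS, and 413, 340.1, 330.0 and 395 in LPS+MV. Either treatment alone left every array above all controls, and the LPS and LPS+MV arrays overlapped. MV raised Fkbp5 by 1.46 ± 0.27 (log2 difference ± SE) without LPS, against a difference of -0.03 ± 0.27 after it, which gave an interaction of -1.498 ± 0.39 (adjusted p = 0.021). The call was lost without control replicate 2 or without LPS+MV replicates 2 and 3, with a highest adjusted p of 0.0922.

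Tsc22d3 encodes GILZ, an anti-inflammatory leucine zipper protein. Its intensities were 587, 781, 739 and 778 in control, 1616, 1784, 1153 and 1706 in MV, 1181, 752, 877 and 961 in LPS, and 759, 846, 695 and 838 in LPS+MV. The MV arrays stood alone: 3 of 4 lay above every array of the other groups, while LPS+MV overlapped with control. The interaction was -1.36 ± 0.32 (adjusted p = 0.0121). With ventilation LPS lowered Tsc22d3 by a log2 difference of -0.98 ± 0.22 (adjusted p = 0.0021), whereas without ventilation the LPS difference of 0.38 ± 0.22 did not pass (adjusted p = 0.198).

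Zbtb16 encodes PLZF, a zinc finger transcription factor. It read 164, 75.1, 112 and 63.4 in control, 544, 820.3, 508 and 632 in MV, 306, 244, 273 and 248 in LPS, and 670.0, 727, 330.4 and 519.8 in LPS+MV. It was the 1 list member that ventilation also raised after LPS, by 1.01 ± 0.30 (adjusted p = 0.0422), against 2.67 ± 0.30 without LPS. The LPS+MV arrays overlapped with the MV arrays, and the interaction was -1.66 ± 0.43 (adjusted p = 0.0226). It was lost without control replicate 2 or without LPS+MV replicates 2 and 3 (highest adjusted p 0.0709).

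Angptl4, a secreted inhibitor of lipoprotein lipase, read 167, 219, 163 and 255 in control, 396, 554, 377 and 444 in MV, 638, 625, 621 and 730.0 in LPS, and 579, 506, 538 and 521 in LPS+MV. Every LPS+MV array lay below every LPS array, although that difference of -0.28 ± 0.19 did not pass (adjusted p = 0.377). The interaction was -1.43 ± 0.27 (adjusted p = 0.00289). Mt2, a metal-binding metallothionein, read 276, 213, 326 and 602 in control, 839.8, 1352, 1303 and 850.3 in MV, 6014, 5845, 5429 and 5711 in LPS, and 6011, 5528, 6290.2 and 4744 in LPS+MV. MV raised it by 1.69 ± 0.27 without LPS and the difference after LPS was -0.03 ± 0.27, an interaction of -1.73 ± 0.39 (adjusted p = 0.01).

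The other 5 members called had interactions from -1.32 ± 0.39 for Errfi1, a feedback inhibitor of the EGF receptor, to -0.60 ± 0.18 for Tat, a hepatic amino acid enzyme that was dim here (13.7 to 24.4). Between them lay Rgcc at -1.25 ± 0.26, Lcn2 at -1.02 ± 0.30 and Klf9 at -0.81 ± 0.21. On leaving out 1 array, the calls of Errfi1, Lcn2 and Tat were each lost in 11 of 16 fits, and that of Klf9 without control replicate 2. Lcn2, an iron-trapping protein of epithelium and neutrophils, is also on the neutrophil list. The clock gene Per1, which glucocorticoids induce, had -1.58 ± 0.53 and did not pass (adjusted p = 0.0693). The letters TGTTCT of the glucocorticoid receptor motif, searched on both strands of the RefSeq promoter windows (GRCm38.p6), was in 1 of the 8 called members with a window (Tsc22d3) and in 13.3% of all genes tested with one.

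**Figure D2:**
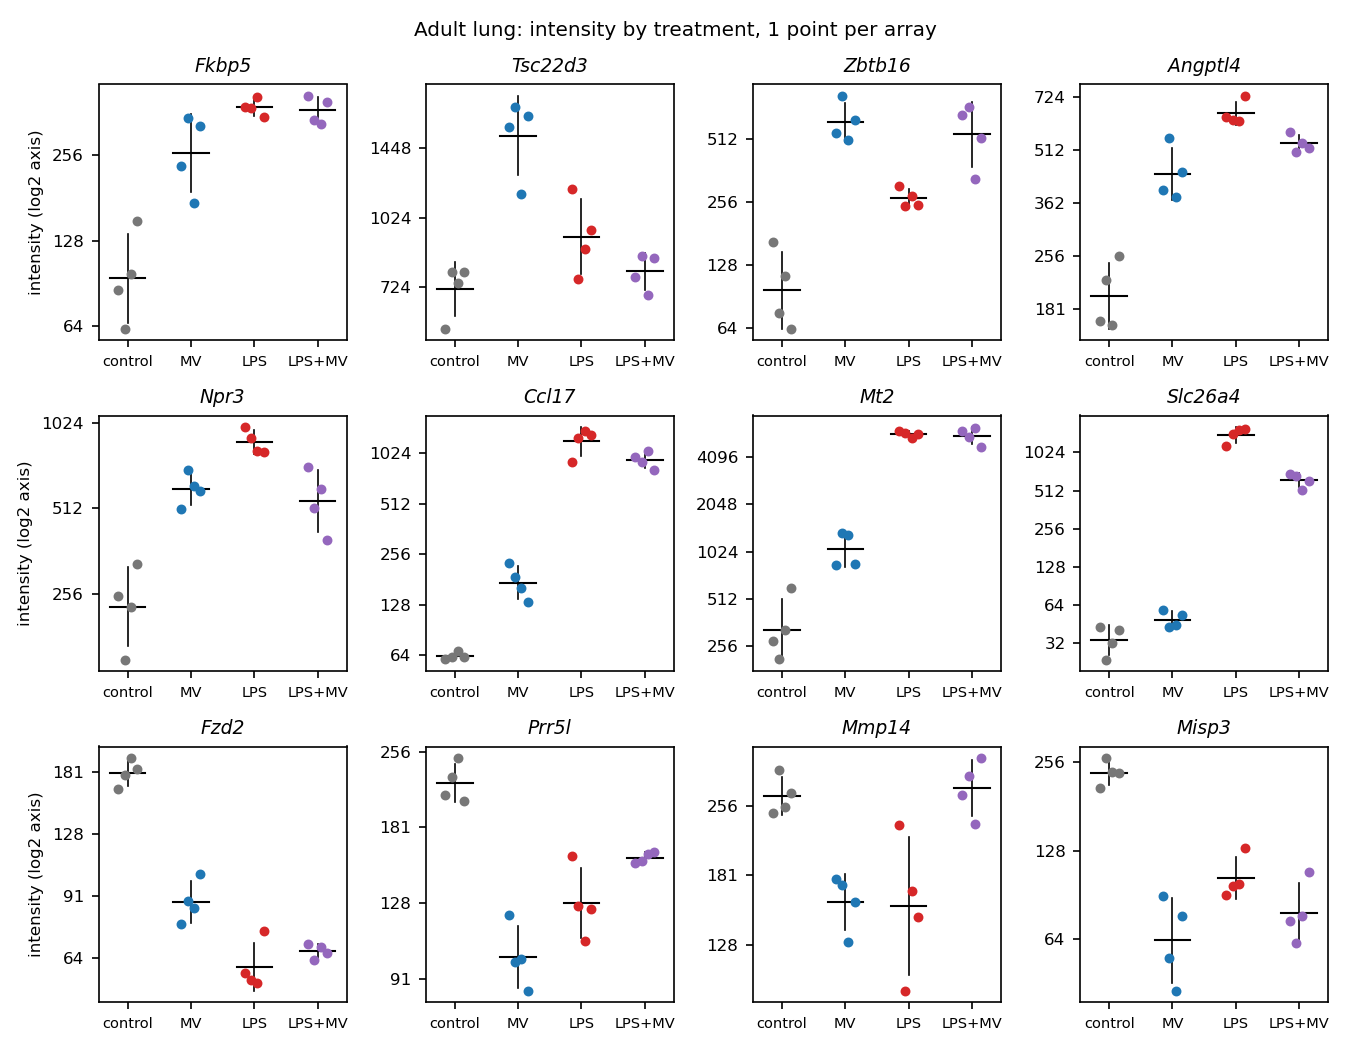
Intensity on a log2 axis for 12 genes on the 16 adult arrays, 4 per group; points are arrays, the horizontal line is the mean of log2 intensity and the vertical bar ± 1 SD (n = 4). For Fkbp5, Angptl4, Npr3, Ccl17 and Mt2 every MV and every LPS array lies above all controls, and the LPS+MV arrays overlap the LPS arrays or lie below them; in Mmp14 the LPS+MV arrays lie with the controls, and in Slc26a4 they lie between control and LPS.

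Genes of the list for the unfolded protein and integrated stress response were called lower too. The unfolded protein response senses misfolded protein in the endoplasmic reticulum through PERK, IRE1 and ATF6 and raises chaperones and degradation factors there. Of the 22 genes on this joint list, all measured, 0 passed higher and 5 lower, where 1.55% of all genes did: Hspa5, Herpud1, Xbp1, Manf and Dnajb9. The list median was -0.26. Ventilation without LPS raised 9 and lowered 1 (7.25% and 24.2% over all genes), and ventilation after LPS raised 0 and lowered 2 (3.55% and 3.32%). There were 8 called lower after quantile normalization, and 3 without LPS+MV replicates 2 and 3. ATF6 and its partner NF-Y act through the ER stress element, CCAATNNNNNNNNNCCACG, and the promoter stretches that hold it are shown because several genes of the list share it. The element was chosen for the search after the data were seen. It was found in 6 of the 21 listed genes with a RefSeq promoter window (28.6%), 0.133% of all genes tested and 0.13% of all genes with a window. Of the called genes with a window, 1 of 4 held it (Hspa5). Hsp90b1, Pdia6, Calr, Creld2 and Ero1b, also shown, were not called for the interaction. The list was made of genes of these responses, so its share describes the list and not the interaction. Lower case is RefSeq sequence of GRCm38.p6 on the gene's strand, 5′ to 3′, and capitals mark the 2 arms of the element in either orientation.
Hspa5, chr2:34771840-34772089, plus strand: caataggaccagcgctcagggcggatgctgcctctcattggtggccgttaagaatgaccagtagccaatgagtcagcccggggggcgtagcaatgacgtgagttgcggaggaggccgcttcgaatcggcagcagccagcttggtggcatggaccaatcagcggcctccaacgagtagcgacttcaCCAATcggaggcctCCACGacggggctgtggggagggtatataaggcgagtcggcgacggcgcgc
Hsp90b1, chr10:86705513-86705676, minus strand: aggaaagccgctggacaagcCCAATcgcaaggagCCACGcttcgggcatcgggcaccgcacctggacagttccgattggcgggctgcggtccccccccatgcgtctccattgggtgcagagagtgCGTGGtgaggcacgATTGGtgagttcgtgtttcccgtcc
Pdia6, chr12:17266471-17266529, plus strand: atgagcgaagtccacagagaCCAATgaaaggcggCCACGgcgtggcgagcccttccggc
Calr, chr8:84847055-84847113, minus strand: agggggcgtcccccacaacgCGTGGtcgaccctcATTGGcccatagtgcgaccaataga
Creld2, chr15:88819500-88819558, plus strand: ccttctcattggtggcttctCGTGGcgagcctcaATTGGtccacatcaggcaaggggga
Ero1b, chr13:12565662-12565720, plus strand: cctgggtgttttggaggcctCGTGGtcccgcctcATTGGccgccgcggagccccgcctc

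Hspa5 encodes BiP, the main chaperone of the endoplasmic reticulum. It read 3872, 3002, 3324 and 3057 in control, 4748, 4352, 3745 and 4357 in MV, 5065, 5449, 4829 and 4880.0 in LPS, and 4298, 3685, 3767 and 4352 in LPS+MV. Every LPS array lay above every LPS+MV array. The interaction was -0.71 ± 0.16 (adjusted p = 0.0106), and it was lost without LPS+MV replicates 2 and 3 (adjusted p = 0.0687). Manf, a secreted protein induced by stress of the reticulum, rose with ventilation alone by 0.51 ± 0.14 (adjusted p = 0.00717) and fell with ventilation after LPS, by a log2 difference of -0.59 ± 0.14 (adjusted p = 0.00991). Its intensities were 925, 723, 876 and 792 in control, 1425, 1203, 949.9 and 1169 in MV, 1495, 1529, 1506 and 1474 in LPS, and 1059, 874, 904 and 1167 in LPS+MV. The combination thus lay below LPS on every array, and the interaction was -1.10 ± 0.20 (adjusted p = 0.00271).

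Herpud1, part of the degradation machinery of the reticulum, read 836, 808, 769 and 764 in control, 1527, 1463, 1260.1 and 1738 in MV, 1182, 1037, 981 and 1057 in LPS, and 1012, 892, 1036 and 1226 in LPS+MV. MV alone stood above all other groups, and the interaction was -0.94 ± 0.17 (adjusted p = 0.00289). Xbp1, the transcription factor spliced by IRE1, had -0.66 ± 0.11 (adjusted p = 0.00111), with the same sign in all 4 of its probe sets. Dnajb9, a co-chaperone of BiP, had -0.56 ± 0.17 (adjusted p = 0.0424). Its call was lost in 11 of the 16 fits that left out 1 array.

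In either direction, inflammatory genes were called at a share near that of all genes (6.61%): 3 of 28 cytokine, 2 of 24 TLR and NF-kB and 0 of 26 interferon-stimulated genes. Lower calls were 2 of 28 cytokine and 2 of 24 TLR and NF-kB genes, beside 1.55% of all genes. Higher calls were 1 of 28 and 0 of 24, beside 5.06%. Of 28 measured cytokine and chemokine genes, Csf1 passed higher and Ccl17 and Cxcl3 lower, with a list median of 0.01, while LPS alone raised 25 of them. Of 24 genes of the TLR and NF-kB pathway, Cd14 and Nfkbia passed lower and 0 higher, with a median of 0.00. Of 26 interferon-stimulated genes 0 passed in limma, with a median of 0.11. After quantile normalization the medians of the cytokine and interferon-stimulated lists were -0.03 and -0.02, and that of the TLR and NF-kB list -0.11. LPS alone raised 19 of the TLR and NF-kB genes and 20 of the interferon-stimulated genes, beside 12.9% of all genes.

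Ccl17, a chemokine that attracts T cells through CCR4, read 60.6, 62.6, 67.9 and 62.4 in control, 226, 186, 161 and 134 in MV, 902, 1254, 1396 and 1322 in LPS, and 966, 905, 1054 and 818 in LPS+MV. MV raised it by 1.46 ± 0.23 without LPS, and the difference after LPS was -0.37 ± 0.23, an interaction of -1.82 ± 0.33 (adjusted p = 0.00259). The LPS and LPS+MV arrays overlapped. Saa3, an acute phase protein, had -1.79 ± 0.53 (adjusted p = 0.0426), with control arrays spread from 37.7 to 255 and LPS arrays from 4215 to 5047. Its call was lost in 16 of 27 alternatives, 12 of them with 1 array left out (highest adjusted p 0.14). Cxcl3, a neutrophil-attracting chemokine, rose from 7.68 to 8.33 in control to 11.7 to 26.9 in MV and to between 908 and 1182 in LPS, with an interaction of -1.36 ± 0.28 (adjusted p = 0.00588). Its control values are near the lowest of the array, and with 32 added before the log the call was lost (adjusted p = 0.192).

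Cd14, the LPS co-receptor, read 360.2, 349, 366 and 416 in control, 569.8, 683, 718 and 601 in MV, 6288, 6668, 6043 and 6425 in LPS, and 6782, 5632, 6603 and 5727 in LPS+MV. Ventilation raised it by 0.78 ± 0.12 without LPS, with a difference of -0.04 ± 0.12 after it, an interaction of -0.83 ± 0.17 (adjusted p = 0.00654). Nfkbia, which encodes the inhibitor that NF-kB itself induces, showed the same shape, with 2498 to 3175 in control, 4657 to 5209 in MV, 7629 to 8566 in LPS and 7491 to 8849 in LPS+MV. Its interaction was -0.86 ± 0.13 (adjusted p = 0.000748), with the same sign in all 5 of its probe sets. Csf1, the macrophage growth factor, went the other way: MV lowered it by a log2 difference of -0.64 ± 0.15, LPS raised it by 1.38 ± 0.15, and the interaction was 0.81 ± 0.21 (adjusted p = 0.0227), a call lost without MV replicate 3 (highest adjusted p 0.0627).

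Neutrophil markers moved beside these genes, while the summed monocyte and macrophage markers overlapped between the groups. The summed intensity of the 15 measured neutrophil markers ran from 4275 to 27508 in control, 4855 to 14449 in MV, 30656 to 46950 in LPS and 25355 to 32851 in LPS+MV, and their part in the results for cytokine genes was not tested. Of these markers Itgam, the integrin chain CD11b, passed higher (1.55 ± 0.48, adjusted p = 0.0478) and Lcn2 lower. Itgam was dim, with control arrays from 20.2 to 77.8 and MV arrays from 13.5 to 22.5. Its call was lost in 18 of 26 alternatives and that of Lcn2 in 13 of 27. Il1b, whose controls also spread widely (180.0 to 629), had 1.41 ± 0.51 and did not pass (adjusted p = 0.0856). Of 16 monocyte and macrophage markers, C1qa (0.74 ± 0.18) and Cx3cr1 passed higher and the scavenger receptor Marco (-1.14 ± 0.29) lower. The call of Marco was lost without LPS+MV replicate 2 (highest adjusted p 0.154). Cx3cr1 lay between 20.2 and 28.4 on every treated array, near the array median, and between 36.8 and 80.9 in control, so its interaction is that of a signal near the floor in 3 groups, and no value is given for it. Of 18 T, B and NK cell markers and 9 MHC class II genes, 0 passed. Over all genes 5.06% were called higher and 1.55% lower. With so few members, the counts of these leukocyte lists are no result about the cells.

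A smaller set of genes answered ventilation after LPS only. Slc26a4, the epithelial anion exchanger pendrin, was raised by LPS by 5.39 ± 0.25, from 42.7, 23.4, 32.03 and 40.5 in control to 1153, 1432, 1543 and 1561. It read 57.7, 42.3, 43.9 and 52.9 in MV and 687, 667, 516 and 609.7 in LPS+MV, every one of the latter below every LPS array. Ventilation after LPS lowered it by a log2 difference of -1.20 ± 0.25 (adjusted p = 0.00353), and the interaction was -1.73 ± 0.35 (adjusted p = 0.00528). Ppp1r14d, an inhibitor subunit of protein phosphatase 1, had the same form at a lower level: 22.6 to 30.2 in control, 19.8 to 27.9 in MV, 94.8 to 149.5 in LPS and 37.1 to 49.7 in LPS+MV. Its control and MV arrays lay near the array medians (21.56 to 22.79), where a fall with ventilation cannot be seen. Its interaction was -1.43 ± 0.21 (adjusted p = 0.000529).

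Rnf144b, a ubiquitin ligase, read 403, 336, 290.3 and 309 in control, 406, 380.2, 356 and 368 in MV, 617, 502, 518 and 667 in LPS, and 1230.2, 1074, 1400.0 and 1222 in LPS+MV. The LPS+MV arrays lay above all others. Ventilation raised it by 1.10 ± 0.12 after LPS and the difference without LPS was 0.18 ± 0.12, an interaction of 0.92 ± 0.17 (adjusted p = 0.00271). Mex3c, an RNA-binding ubiquitin ligase, read 575 to 691 in control, 528 to 653 in MV, 566 to 653 in LPS and 804 to 975 in LPS+MV (0.60 ± 0.12, adjusted p = 0.0046). Sele, the endothelial selectin that captures leukocytes, lay below the array median in control (8.93 to 10.5) and MV (8.80 to 12.4), where a ventilation effect cannot be seen. It read 28.3 to 49.8 in LPS and 60.1 to 150.4 in LPS+MV, and ventilation after LPS raised it by 1.44 ± 0.26 (adjusted p = 0.00137). Its interaction passed (adjusted p = 0.0361), and that call was lost on leaving out any 1 of 10 arrays. Rsrp1, a serine-rich nuclear protein, had 1.65 ± 0.48 (adjusted p = 0.0379), and its call was lost in 8 of the 16 fits that left out 1 array (highest adjusted p 0.0956).

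In 12 genes ventilation acted in opposite directions without and after LPS. Mmp14, the membrane-bound protease that cleaves collagen and activates MMP2, read 247, 306, 254 and 273 in control, 178, 172, 129.8 and 158 in MV, 233, 102, 167 and 147 in LPS, and 270.2, 296, 234 and 325 in LPS+MV. Each treatment alone lowered it, MV by a log2 difference of -0.76 ± 0.20 and LPS by -0.79 ± 0.20, and the combination lay with the controls. Its interaction was 1.61 ± 0.28 (adjusted p = 0.0022). Lifr, the receptor subunit for leukaemia inhibitory factor, read 741 to 954 in control, 505 to 618 in MV, 328 to 396 in LPS and 417 to 537 in LPS+MV. Its interaction of 0.87 ± 0.14 (adjusted p = 0.00107) was not called as a mean over its probe sets (adjusted p = 0.0655).

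S1pr1, the sphingosine 1-phosphate receptor that tightens the endothelial barrier, read 587, 479, 515 and 562 in control, 759.6, 868, 816 and 828 in MV, 1119, 895, 879 and 1003 in LPS, and 802, 722, 710.0 and 765 in LPS+MV. Ventilation raised it without LPS by 0.61 ± 0.11 and lowered it after LPS by a log2 difference of -0.37 ± 0.11 (adjusted p = 0.0456). The interaction was -0.99 ± 0.16 (adjusted p = 0.00107). S1pr2, a related receptor, fell with ventilation in both arms, by -1.07 ± 0.11 and -0.41 ± 0.11 on the log2 scale, with an interaction of 0.67 ± 0.16 (adjusted p = 0.0129) that was not called as a mean over its probe sets (adjusted p = 0.197). Vmp1, a membrane protein of autophagy, read 586 to 678 in control, 827 to 932 in MV, 969 to 1225 in LPS and 839 to 904 in LPS+MV (-0.80 ± 0.10, adjusted p = 6.55e-05).

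Several genes with a positive interaction fell with ventilation alone. Fzd2, a Wnt receptor, had the smallest p of all 13089 interactions. It read 165, 178, 196 and 185 in control, 77.2, 87.8, 84.7 and 102 in MV, 58.8, 56.7, 55.6 and 74.3 in LPS, and 69.2, 63.4, 68.1 and 66.0 in LPS+MV. All treated arrays lay below all controls. MV lowered Fzd2 by a log2 difference of -1.04 ± 0.09 without LPS and the difference after LPS was 0.13 ± 0.09, an interaction of 1.17 ± 0.12 (adjusted p = 6.55e-06). Cdon, a co-receptor for hedgehog ligands, had the same form, with 119 to 144 in control and 45.2 to 74.8 over all treated arrays (1.19 ± 0.16, adjusted p = 0.000137).

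Prr5l, a partner of the mTORC2 kinase, read 210.1, 228, 248 and 204 in control, 121, 97.6, 99.4 and 85.8 in MV, 159, 126, 108 and 125 in LPS, and 154, 156, 160.1 and 162 in LPS+MV. All LPS+MV arrays lay above all MV arrays and below all controls, and the interaction was 1.45 ± 0.16 (adjusted p = 7.44e-06). Sox7, an endothelial transcription factor, read 517, 361, 391 and 449 in control, 229.9, 211, 226 and 188 in MV, 340.4, 316, 292 and 245 in LPS, and 386, 299, 380.4 and 395 in LPS+MV (1.29 ± 0.21, adjusted p = 0.000984). Sox17, of the same family, had 1.20 ± 0.26 (adjusted p = 0.00754), and it was the 1 called of 25 endothelial markers, whose median was 0.23. MV alone lowered 12 of those 25 (24.2% of all genes), and ventilation after LPS 1 (3.32% of all genes).

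Cass4, an adhesion scaffold, fell with MV alone, to 24.6 to 36.7 from 84.8 to 113, and read 119.7 to 201 in LPS and 78.4 to 180.0 in LPS+MV (1.43 ± 0.36, adjusted p = 0.0193). Misp3 read 209 to 264 in control, 42.6 to 89.8 in MV, 90.0 to 131 in LPS and 61.9 to 109 in LPS+MV (1.503 ± 0.28, adjusted p = 0.00319). Tiam1, an activator of Rac, had 1.25 ± 0.30 and the amino acid transporter Slc7a10 had 1.24 ± 0.28. Rbm12, an RNA-binding protein, had 1.31 ± 0.29 by the probe set used and -0.23 by its other one, and is uncertain.

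Markers of alveolar type 1 cells, the thin cells that form most of the gas exchange surface, had a list median of 0.36. Of 18 measured, 5 passed higher (Igfbp2, Gprc5a, Vegfa, Clic3 and Aqp5) and 0 lower, where 5.06% of all genes were called higher. MV alone lowered 15 of the 18, LPS alone lowered 15, and ventilation after LPS lowered 3. Over all genes these comparisons lowered 24.2%, 22.7% and 3.32%. In whole lung, fewer cells of a type and less RNA per cell cannot be told apart. There were 6 called higher after quantile normalization, 3 without control replicate 2, control replicate 4 or LPS replicate 3, and 2 without MV replicate 3 or LPS+MV replicate 4.

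Igfbp2, a binding protein of insulin-like growth factors, read 1546, 1844, 2014 and 2075 in control, 824, 711, 529 and 826 in MV, 991, 1199, 1101 and 1238 in LPS, and 1011, 1139, 664 and 1069.6 in LPS+MV. It had the largest interaction of the list, 1.14 ± 0.24 (adjusted p = 0.00731). Vegfa, the endothelial growth factor that these cells supply, fell with MV alone by a log2 difference of -0.61 ± 0.09, with 0.01 ± 0.09 after LPS (interaction 0.62 ± 0.12, adjusted p = 0.00425). Aqp5, a water channel, read 1529 to 1873 in control, 1022 to 1218 in MV, 949 to 1010.5 in LPS and 804 to 951 in LPS+MV (0.49 ± 0.14, adjusted p = 0.0321). The orphan receptor Gprc5a had 0.73 ± 0.20 and the chloride channel protein Clic3 0.53 ± 0.14. Of the 16 fits that left out 1 array, Aqp5 lost its call in 7, Gprc5a in 5 and Clic3 in 4.

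In the remaining lists, beside the 5.06% called higher and 1.55% called lower over all genes, the called members were these. Of 24 matrix genes, Mmp14 and Col6a3 (0.64 ± 0.20) passed higher and the collagen crosslinking enzyme Lox (-0.67 ± 0.21) lower, and the calls of Col6a3 and Lox were each lost in 19 of 27 alternatives. Of 19 surfactant and type 2 markers, the lipid transporter Abca3 passed higher (0.61 ± 0.17, adjusted p = 0.0324), a call lost in 6 of the 16 fits that left out 1 array. Of 16 adhesion and coagulation genes, Sele and Itgam passed higher, and tissue factor F3 (-1.03 ± 0.24) and the plasminogen activator Plat (-0.63 ± 0.19) lower, Plat with its call lost in 15 of 27 alternatives. Of 18 antioxidant genes, Sod3 (0.76 ± 0.19) passed higher, and Gclc (-0.96 ± 0.22) and Sod2 (-0.33 ± 0.09) lower, although 1 of the 4 probe sets of Sod2 had the opposite sign and its call was lost in 9 of 27 alternatives. Of 16 clock genes, the repressor Bhlhe40 passed lower (-0.90 ± 0.21, adjusted p = 0.0113), with a median of -0.36, and 4 passed after quantile normalization.

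Of 34 immediate early genes Ier2 (0.93 ± 0.28) passed higher and Gadd45g (-1.10 ± 0.33) lower, and of 21 feedback genes Zfp36l1 (0.75 ± 0.17) higher and Dusp16 (-0.76 ± 0.23) lower. Zfp36l1 kept its call in every alternative, while that of Ier2 was lost in 15, that of Gadd45g in 16 and that of Dusp16 in 18 of 27. Of 23 lipid synthesis genes Srebf1 (0.86 ± 0.20) and of 20 airway markers Tubb4b (0.42 ± 0.12) passed higher, but the other 2 probe sets of Tubb4b had the opposite sign and its call was lost in 9 of 27 alternatives. Of the 19 heat shock chaperones 0 passed, with a median of -0.51. Hspa1b, the inducible HSP70, had the largest value of that list at -3.51 ± 1.16 (adjusted p = 0.063), and its MV arrays ran from 448 to 6265 and its LPS+MV arrays from 437 to 3967. Of 23 proliferation, 10 red cell and 14 ribosomal protein genes 0 passed, with medians of 0.24, 0.10 and -0.01.

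**Figure D3:**
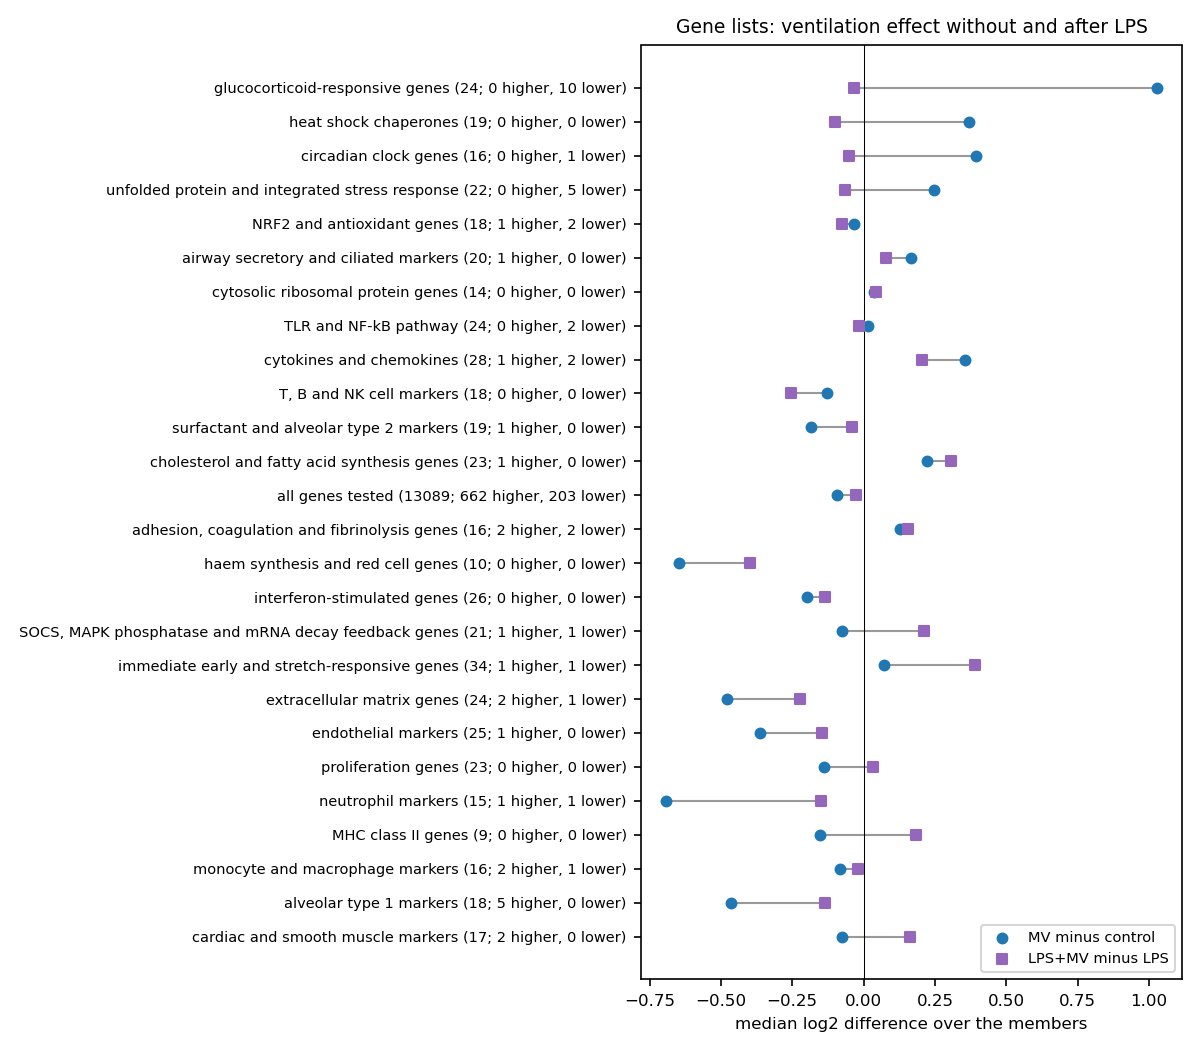
Median log2 difference over the measured members of each of 25 gene lists and over all genes tested, for MV minus control (circles) and LPS+MV minus LPS (squares); labels give the number measured and the numbers called higher and lower for the interaction, and rows are ordered by the median interaction. Glucocorticoid-responsive genes have the widest gap, 1.03 against -0.03, and cytosolic ribosomal protein genes (0.04 and 0.04) one of the narrowest.

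Of the named genes, Npr3, the clearance receptor for natriuretic peptides, had the most negative interaction that was called in every alternative processing and with every array left out in turn, apart from Shmt1, described below. It read 252, 149, 229 and 326 in control, 508, 699, 616 and 592 in MV, 993, 908, 817 and 809 in LPS, and 718, 516, 602 and 396 in LPS+MV. Both single treatments lay above control on every array, and every LPS+MV array lay below every LPS array. The interaction was -2.07 ± 0.33 (adjusted p = 0.000984), and its 3 probe sets gave -2.07 to -1.74. Fam107a, an actin-bundling stress protein, had -1.79 ± 0.48 (adjusted p = 0.0261), with 68.0 to 201 in control, 171 to 436 in MV, 612 to 768 in LPS and 458 to 652 in LPS+MV. The call of Fam107a was lost without control replicate 2, without LPS+MV replicates 2 and 3, and as a mean over probe sets (highest adjusted p 0.0957). The other probe sets of Fam107a gave -1.16 and -0.23.

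In juveniles the same contrast called 89 genes (0.68% of those tested; 39 higher, 0.298%, and 50 lower, 0.382%), with groups of 4, 3, 4 and 3 arrays. Juvenile ventilation changed 10.6% of genes without LPS (4.29% higher, 6.31% lower) and 15.4% after it (5.93% higher, 9.48% lower), so the larger arm was the one without LPS in adults and the one after LPS in juveniles. Of the adult calls 26 were also juvenile calls. This is 3.01% of the adult calls, beside 0.68% of all genes called in juveniles. It is 29.2% of the juvenile calls, beside 6.61% of all genes called in adults. The ages share no array, but they share the estimate of spread of each gene. The difference of the interaction between the ages was called for 72 genes (0.55%; 62 higher in adults, 0.474%, and 10 lower, 0.0764%). In juveniles Xist was high on control replicate 3, MV replicate 3 and LPS+MV replicates 2 and 3. It thus did not follow ventilation as it did in adults. With the term for this pattern, the age difference was called for 36 genes. Differences between the ages, in arms or interaction, cannot be told apart from this pattern. The glucocorticoid-responsive list had a juvenile median of 0.06 with 0 called. Its age difference, with a median of -0.86, was called for 1 member, Errfi1 (-2.58 ± 0.58, adjusted p = 0.0323).

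Both of the following had a called interaction at each age. Slc26a4 had -1.71 ± 0.38 in juveniles (adjusted p = 0.0228) beside -1.73 ± 0.35 in adults, a difference of -0.02 ± 0.51. Its juvenile control arrays (17.9, 16.5, 54.7 and 19.3) and MV arrays (16.6, 20.8 and 20.5) lay below the array medians, apart from control replicate 3. A fall with ventilation without LPS could not be seen there, which limits the comparison of the ages for Slc26a4. Rnf144b had 1.41 ± 0.18 (adjusted p = 0.000125) beside 0.92 ± 0.17, a difference of -0.50 ± 0.24 (adjusted p = 0.394). For other genes the difference itself was called. Prr5l had -0.21 ± 0.17 in juveniles, an age difference of 1.66 ± 0.24 (adjusted p = 0.000896), and Npr3 had 0.28 ± 0.35, an age difference of -2.35 ± 0.48 (adjusted p = 0.0191). For Sox7 the age difference was 1.64 ± 0.31 (adjusted p = 0.00987), for Sox17 2.02 ± 0.38 (adjusted p = 0.01) and for S1pr1 -1.23 ± 0.24 (adjusted p = 0.0113).

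**Figure D4:**
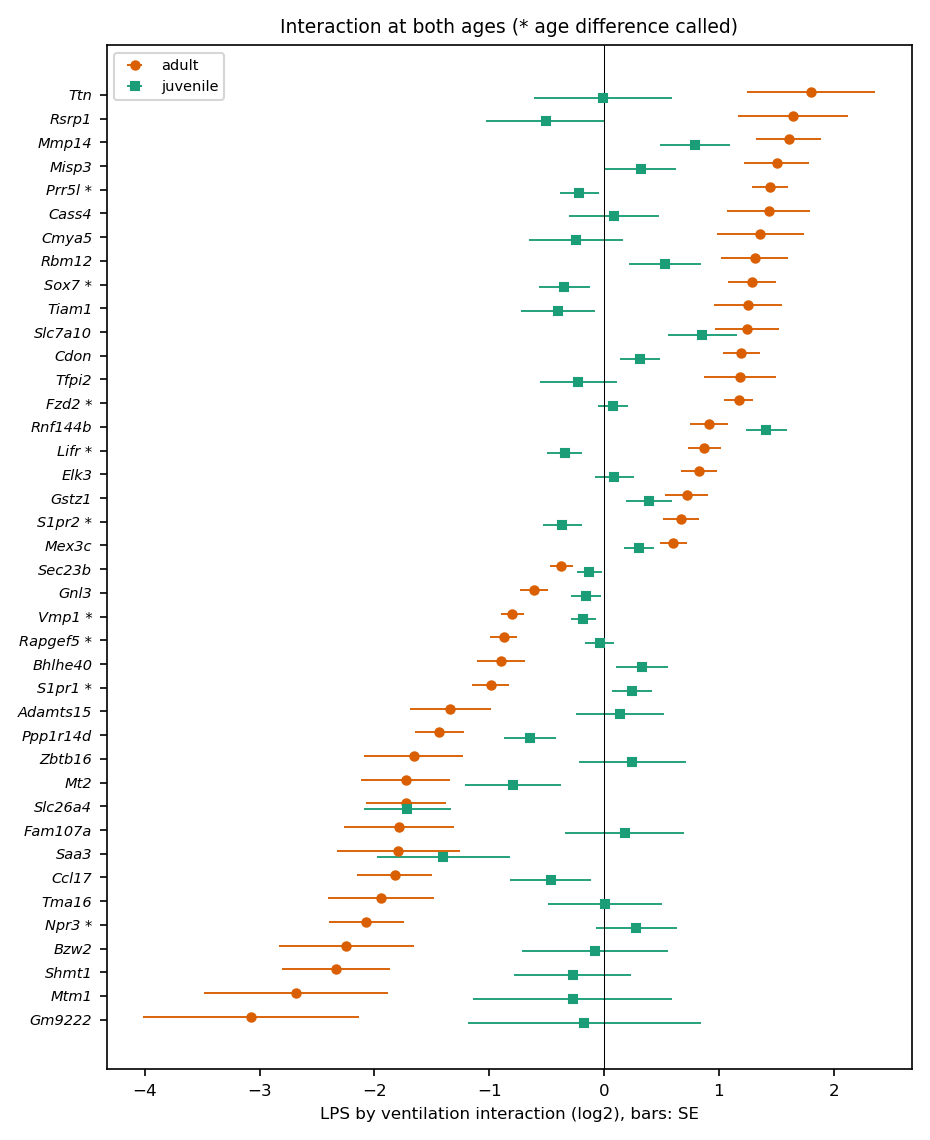
Adult (circles) and juvenile (squares) interaction of LPS with ventilation for named genes among the highest and lowest adult values and for examples of each pattern, with bars of ± 1 SE; an asterisk marks a called age difference. The genes were chosen by their adult values. Slc26a4 lies at -1.73 in adults and -1.71 in juveniles, where most of its control and MV arrays were below the array medians, and Npr3 at -2.07 and 0.28.

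Several of the lowest interactions came from probe sets that varied together between arrays of a group. Within groups, over 30 arrays, the log2 values of Gm9222, Tma16, Bzw2 and Shmt1 correlated with those of Mtm1 at r = 0.95, 0.93, 0.93 and 0.89. These genes were put together after their values were seen, the correlation is a description, and the probe sets share the hybridization of each array. Mtm1, a phosphoinositide phosphatase, read 45.5, 42.4, 26.4 and 35.5 in control, 182, 163, 169 and 284 in MV, 25.8, 278, 119.9 and 161 in LPS, and 168, 138, 61.8 and 45.3 in LPS+MV. LPS replicate 1 thus lay at the level of the controls and the other LPS arrays far above, and among juvenile controls Mtm1 ran from 47.6 to 392. Its interaction was -2.68 ± 0.80 (adjusted p = 0.0428), and that of Gm9222 -3.07 ± 0.94 (adjusted p = 0.0467).

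Shmt1, the cytosolic enzyme that feeds serine into folate metabolism, had -2.34 ± 0.47 (adjusted p = 0.00528), Bzw2 -2.24 ± 0.59 and Tma16 -1.95 ± 0.46. The other probe sets of these genes did not agree in size: they gave 0.39 and -1.62 for Mtm1, 0.10 for Bzw2, 0.04 for Tma16, and -0.16 to -0.73 for Shmt1. The values of Mtm1, Bzw2, Tma16 and Shmt1 are given as values of those probe sets. Gm9222 had 1 probe set, whose name marks possible binding of several transcripts, and its call was lost in 18 of 27 alternatives. The call of Bzw2 was lost without control replicate 2, LPS replicate 2 or LPS+MV replicate 4 (highest adjusted p 0.0742). The call of Mtm1 was lost on leaving out any 1 of 13 adult arrays, and kept without LPS replicate 1, LPS+MV replicate 1 or LPS+MV replicate 2 (highest adjusted p 0.103).

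**Figure D5:**
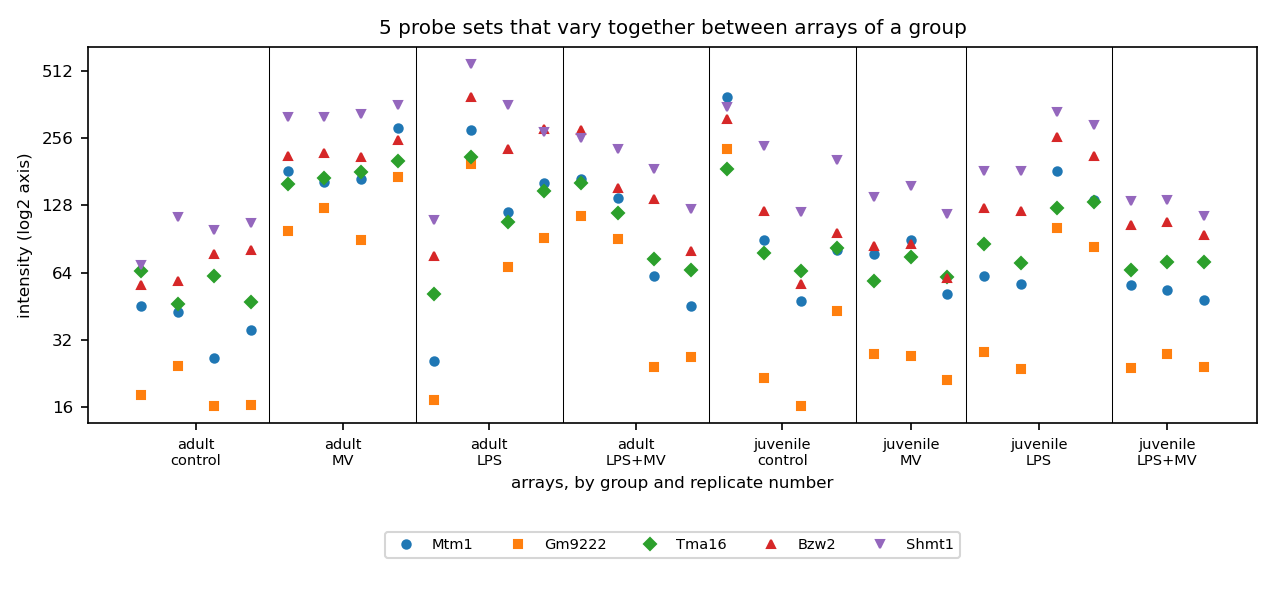
Intensity on a log2 axis of the probe sets of Mtm1, Gm9222, Tma16, Bzw2 and Shmt1 on all 30 arrays, ordered by group and replicate number, with lines between groups. The 5 probe sets are low together on adult LPS replicate 1 and high together on juvenile control replicate 1, against the other arrays of those groups.

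Genes of striated muscle varied between the LPS+MV arrays. Ttn, the giant spring protein of striated muscle, had the most positive interaction of the named genes (1.80 ± 0.56, adjusted p = 0.0497), Cmya5, a protein of the muscle Z-disc, had 1.36 ± 0.38 (adjusted p = 0.0319) and Myh7, a cardiac myosin, 0.96 ± 0.26 (adjusted p = 0.0308). Ttn read 92.8 to 168 in control, 37.9 to 88.3 in MV, 47.0 to 69.1 in LPS, and 41.9, 291, 121 and 141 in LPS+MV. The atrial hormone gene Nppa ran from 368 to 841 over control, MV and LPS, and from 132 to 3564 in LPS+MV, and Sln, an atrial calcium pump regulator, from 351 to 659 and from 323 to 1458. LPS+MV replicates 2 and 3 held the highest values of both. The summed intensity of the 17 cardiac and smooth muscle markers was 9397 to 24898 in LPS+MV and 12262 to 17774 in the other groups. Without these 2 arrays the list median turned from 0.43 to -0.12, the calls of Ttn, Cmya5 and Myh7 were lost, and 248 genes were called higher and 72 lower over all. The call of Ttn was lost in 20 of 27 alternatives (highest adjusted p 0.237), that of Cmya5 in 10 of 26 (highest 0.203) and that of Myh7 in 8 of 26 (highest 0.0802). For Ttn and Cmya5 these included the fits without LPS+MV replicate 2 or replicate 3 alone. The part of muscle tissue in the other results was not tested.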

How the data were processed

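Total RNA of whole lung was hybridised to Affymetrix mouse 430 2.0 arrays, 1 animal per array. The deposited values are intensities on a linear scale, summarised per probe set and normalized between arrays by the authors (array medians 21.56 to 22.79). MAS5 is the 1 tool named in the submitters' processing notes, and the method of normalization is not given in the sources used here. Of 45037 probe sets, 34945 had 1 gene symbol, 932 several and 9160 none, by GEO's platform annotation, and 34741 matched the RefSeq gene table. Values were taken as log2 with no pseudocount. A probe set was kept where it exceeded the median of the array on 3 or more arrays (24825), and the one with the highest mean stood for each gene, which left 13089 genes.

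limma 3.58.1 in R 4.3.3 was fitted over all 30 arrays with 1 mean for each of 8 groups and eBayes with an intensity trend (22 residual and 5.16 prior degrees of freedom). The 9 comparisons fitted were tested 2-sided, each with Benjamini-Hochberg adjustment over all genes, and called at an adjusted p of 0.05. On data simulated for the adult interaction over 13089 genes, 30% of interactions of 0.5 and 86% of interactions of 1 (log2) were recovered. The number of arrays limits the precision. No 2 arrays held identical values.

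Genes were named by rule: the 12 highest and 12 lowest called interactions with a group mean of at least 100, up to 4 genes per list by p, and up to 4 per class. Not every gene that the rule names is described in the text. Members and lists were chosen with earlier results of these data known. Names marking possible binding of several transcripts belong to the probe sets used for Gm9222, Tma16, Bzw2, Saa3, Fam107a, Ttn, Rsrp1, Angptl4, Csf1, Dusp16, Gadd45g, Hspa5, Igfbp2, Lcn2, Rgcc, Sod2, Sox17, Srebf1, Tsc22d3, Xbp1, Hspa1b, Il1b and Xist. The alternatives changed the pseudocount, filter, scaling, choice of probe set, model and arrays. Replicate numbers did not pair arrays. Labels give no batch, sex or date.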

Additional observations from a re-analysis of the deposited data

Results flagged for a closer look

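Among 164 sets of 4 adult arrays (41 named genes in 4 groups), 8 (4.88%) held an array far from the other 3, and chance flags about 1 in 20. In MV these were Saa3 on replicate 1 (456, others 178 to 196), Ttn on replicate 4 (37.9, others 77.8 to 88.3) and S1pr2 on replicate 3 (89.4, others 123 to 127). In control they were Bhlhe40 (259.8, others 183 to 192) and Sec23b (488, others 396 to 409), both on replicate 1. Rapgef5 stood apart on LPS replicate 1 (1396, others 1265 to 1278), Sox7 on LPS+MV replicate 2 (299, others 380.4 to 395) and Bhlhe40 on LPS+MV replicate 3 (1419.9, others 1274 to 1295).

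The interaction differed with age by limma's test of the difference for 9 of the 41 genes named for the size of their adult value or as examples of a class, and for 0.55% of all genes. These genes were picked by their adult values. Sox17 and Errfi1, named from lists, are outside the 41. The adult minus juvenile value was negative for Npr3 (-2.35), S1pr1 (-1.23), Rapgef5 (-0.84) and Vmp1 (-0.62). It was positive for Prr5l (1.66), Sox7 (1.64), Lifr (1.22), Fzd2 (1.09) and S1pr2 (1.03).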

How the results depend on the processing

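Of 84 named genes with a called interaction, 38 kept the call under every alternative and 0 changed sign. With quantile normalization 372 genes were called higher and 439 lower, 155 in juveniles, and 26 genes had both arms called in the same and 21 in opposite directions. With array weights the counts were 1066 and 455, with 1735 for ventilation after LPS, 465 in juveniles and 363 for the age difference. The classes then held 1126 (without LPS only), 191 (after LPS only), 67 (same direction) and 54 (opposite). Same and opposite classes held 9 and 20 with the mean over probe sets, and 38 and 28 with the 16 adult arrays alone. A filter at 100 left 26 genes with neither arm called. With the Xist term ventilation changed 1674 genes without and 226 after LPS, the age difference 36, and the classes held 37 (after LPS only), 3 (same), 1 (opposite) and 222 (neither). Without LPS+MV replicates 2 and 3, chosen after seeing the data, there were 248 higher, 72 lower, 348 after LPS and 37 for the age difference. The classes held 282, 24, 2 (same), 2 (opposite) and 10 (neither). The causes of these shifts were not tested.

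With 1 adult array left out in turn, the higher calls ran from 297 to 755, the lower from 96 to 236, ventilation after LPS from 515 to 1017, without LPS from 3033 to 4122, and the age difference from 41 to 83. The classes ran from 338 to 755 (without LPS only), 40 to 126 (after LPS only), 4 to 22 (same), 4 to 24 (opposite) and 13 to 75 (neither).

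The replicate block gave 805 higher, 234 lower, 119 for the age difference and 22 in the opposite class. The numbers do not pair the arrays: same-numbered arrays correlated at -0.19 to 0.46, over 0.1 in 9 of 24 pairs.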
